A study of Mus musculus with 15 samples.

Results

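Estrogens, progesterone, glucocorticoids and mineralocorticoids act on the liver through receptors that mostly belong to one family, class 3 of the nuclear receptors, and the RNA of 6 such receptors was followed here. The genes were taken by name from the gene count table: Esr1, Esr2, Gper1, Pgr, Nr3c1 and Nr3c2, which are 6 of the 55573 genes listed and of the 33253 genes with at least 1 count. RNA was sequenced from the livers of 8-week-old mice after depletion of ribosomal RNA. Homozygous Esr1 knockout mice and wild type littermates of the line B6N(Cg)-Esr1tm4.2Ksk/J gave 4 groups. The knockout mice were bred from heterozygous parents. These were 3 WT females (FWT), 5 ESR1KO females (FKO), 3 WT males (MWT) and 4 ESR1KO males (MKO). The allele lacks exon 3 of Esr1 in the whole body, so loss of the receptor in liver and in other tissues cannot be told apart. No treatment was given in the labels, and the labels do not say which mice shared a litter.

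A nuclear steroid receptor waits for its ligand in the cytoplasm or nucleus. On binding it, the receptor pairs with a second copy, settles on DNA through 2 zinc fingers and recruits coregulator proteins that change transcription. Esr1 encodes the estrogen receptor alpha, the main estrogen receptor of liver, and Esr2 its close relative, the estrogen receptor beta. Pgr encodes the progesterone receptor, Nr3c1 the glucocorticoid receptor, which drives gluconeogenic and amino acid catabolic genes in hepatocytes, and Nr3c2 the mineralocorticoid receptor, best known from the kidney. Gper1 is the exception in the group, a membrane receptor coupled to G proteins that binds estradiol.

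The library totals ranged from 27799061 to 78624766 counts over the 15 mice. The deepest and the shallowest library were both from ESR1KO males. The sum over 6 hepatocyte markers, in CPM (the count per 1000000 counts of a library, scaled by the edgeR TMM factors), was 73097 to 74281 in WT males, below every other mouse, 98453 to 109379 in WT females, 80849 to 103356 in ESR1KO females and 85344 to 93312 in ESR1KO males. Most of this sum was Alb, with means of 86414 CPM in WT females and 54550 CPM in WT males. Apoa1, Ttr, Hnf4a and Serpina1a had higher means in WT males, and Cyp2e1, like Alb, in WT females. The median log2 difference of the 6, WT females minus WT males, was -0.15. Only Alb of the 6 differed between the WT sexes at adjusted p under 0.05 (0.66 on the log2 scale, adjusted p = 0.0382 by the edgeR quasi-likelihood test). At this threshold 4.87% of all genes tested differed between the WT sexes, 2.67% as higher and 2.2% as lower in females. Of 5 bile duct cell markers Epcam was higher (adjusted p = 0.00657) and Sox9 lower (adjusted p = 0.0384) in females. Among markers of other cell types, 2 of the 5 of bile duct cells, Krt19 and Epcam, were higher in ESR1KO than in WT males. Their adjusted p was 0.0307 and 0.0300, and 0.833% of all genes were higher in this comparison. The sum of these 5 markers was 3.19 to 4.52 CPM in WT females and 3.43 to 4.46 CPM in WT males. It was 3.75 to 5.19 CPM in ESR1KO females and 4.89 to 5.85 CPM in ESR1KO males. Of 6 Kupffer cell and macrophage markers, Vsig4 was higher in ESR1KO females than in ESR1KO males (adjusted p = 0.0210), as were 0.159% of all genes. The list sums were 314 to 404 CPM in ESR1KO females and 244 to 316 CPM in ESR1KO males. Cela1, the only gene tested of the pancreas and adipose list, was lower in ESR1KO than in WT males (adjusted p = 0.00804), as were 0.583% of all genes. Cela1 averaged 20.6 CPM over the 15 libraries. The others of that list, Cpa1, Cel, Adipoq and Plin1, each averaged 0.026 CPM or less. The part of these marker differences in the receptor results was not tested.

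The genes were placed on GRCm38 with the GENCODE annotation. Esr1 (ENSMUSG00000019768) lies on the plus strand at chr10:4611593-5005614, and Esr2 (ENSMUSG00000021055) on the minus strand at chr12:76120419-76177259. Pgr (ENSMUSG00000031870) is at chr9:8899833-8968611 on the plus strand and Gper1 (ENSMUSG00000053647) at chr5:139423151-139427800 on the plus strand. Nr3c1 (ENSMUSG00000024431) occupies chr18:39410545-39519421 on the minus strand, and Nr3c2 (ENSMUSG00000031618) chr8:76899442-77245012 on the plus strand. An antisense RNA, Gm10649, shares exon sequence with Nr3c2 and had 5 to 30 counts per library, against 1364 to 3643 for Nr3c2. Gper1 lies inside an intron of 3110082I17Rik on the opposite strand. Whether the counting used strand is not given in the sources used here, so reads from these antisense pairs cannot be told apart.

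The deleted exon is shown first, because it sets what the Esr1 counts can report. In 2 of the 3 principal transcripts of Esr1, the exon numbered 3 is chr10:4746617-4746807 on the plus strand, 191 bases, all of them coding. It makes up 1.40% of the annotated exon bases of the gene and 3.01% of the longest principal transcript. In the other principal transcript, which has 1 more leading exon, the same exon is number 4, and the sources do not say from which transcript exon 3 was counted. Its length leaves a remainder of 2 when divided by 3. In the sequence the capitals mark the 30 bases around the recognition helix of the first zinc finger, the part of the receptor that reads the DNA letters of its target site.

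Esr1 exon 3, GRCm38: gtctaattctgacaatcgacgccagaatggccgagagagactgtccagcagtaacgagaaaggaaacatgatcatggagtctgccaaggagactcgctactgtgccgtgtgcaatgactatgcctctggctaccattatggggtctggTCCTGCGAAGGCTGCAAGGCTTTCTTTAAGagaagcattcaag

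The same 30 bases were read from the genome for the other members with this helix that are shown here, since they are the stretch in which estrogen receptors and the other steroid receptors differ in the DNA they choose. Capitals mark the codons of the 3 residues, known as the P box, that set this choice. The stretches are chr10:4746765-4746794 (plus strand) for Esr1, chr12:76165462-76165491 (minus strand) for Esr2, chr9:8903705-8903734 (plus strand) for Pgr and chr8:77085624-77085653 (plus strand) for Nr3c2. Each lies within 1 exon.
Esr1: tcctgcGAAGGCtgcaagGCTttctttaag
Esr2: tcctgtGAAGGAtgtaagGCCttttttaaa
Pgr: acctgtGGGAGCtgcaagGTCttctttaag
Nr3c2: acctgcGGCAGCtgcaaaGTCttcttcaaa
Esr1 and Esr2 shared 24 of the 30 bases, and Pgr and Nr3c2 shared 25. Across the 2 pairs the identity was lower, from 19 to 23 bases.

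The first question was how far the targeted gene itself fell, and the next whether the other receptors changed with it or differed between the sexes. Esr1 RNA was lower in every ESR1KO mouse than in any WT mouse of the same sex. The 3 WT females had 74.7, 88.2 and 82.8 CPM, and the 5 ESR1KO females had 19.7, 13.9, 11.7, 9.67 and 10.7 CPM. The 3 WT males had 25.04, 31.2 and 52.0 CPM, and the 4 ESR1KO males had 16.1, 12.5, 8.22 and 10.5 CPM. The WT groups also did not overlap each other, with all females above all males, whereas the ESR1KO groups overlapped almost fully. Groups failed to overlap for 15.6% of all genes tested in the female knockout comparison, 15.9% in the male one, 30.1% between WT sexes and 5.22% between ESR1KO sexes. These counts came from the whole gene, so transcripts without the deleted exon were still counted. ESR1KO females kept 16.02% ± 4.90 (SD, n = 5) of the mean WT female level, and ESR1KO males kept 32.8% ± 9.28 (SD, n = 4) of the mean WT male level. Each SD covers the spread of the ESR1KO mice only. The WT males themselves ranged from 69.4% to 144% of their mean, and the WT females from 91.2% to 108%. In bulk liver, fewer cells with Esr1 RNA and less Esr1 RNA per cell cannot be told apart.

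**Figure D1:**
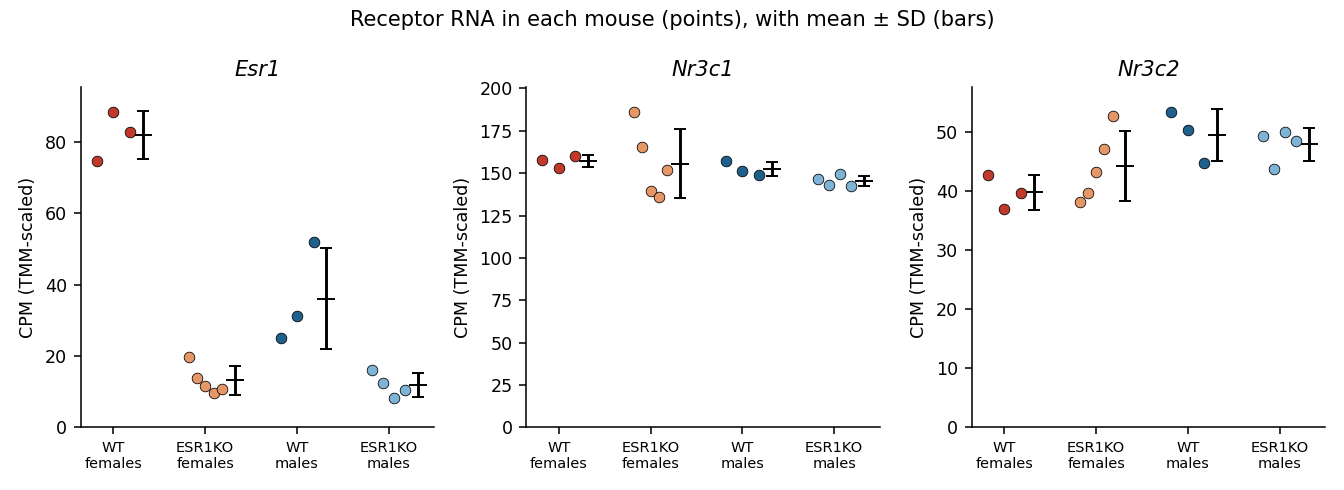
The receptors measured well above the count filter, in CPM on linear axes from 0, with 1 point per mouse and bars for the mean and SD of each group. Esr1 separates every ESR1KO mouse from the WT mice of its sex, with 9.67 to 19.7 CPM in ESR1KO females against 74.7 to 88.2 in WT females, while Nr3c1 stays between 136 and 186 CPM.

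In females the Esr1 difference between ESR1KO and WT was -2.64 on the log2 scale (SE 0.248, 95% interval -3.17 to -2.12), with adjusted p = 4.47e-06 by the edgeR test. Of all 17655 genes tested, 5.71% passed in this comparison, 3.14% as higher and 2.57% as lower. In males the difference was -1.62 (SE 0.264, 95% interval -2.18 to -1.06; adjusted p = 0.00445), where 1.42% of all genes passed, 0.833% as higher and 0.583% as lower. Among the genes that fell, Esr1 ranked 45 of 453 by size in females and 43 of 103 in males. Both falls also exceeded a log2 change of 1.5, a size that 1.2% of genes passed in females and 0.578% in males. The exact 2-sided permutation test gave p = 0.0357 in females and 0.0571 in males, each the smallest that the group sizes allow. Without the third WT male, which had the highest Esr1 level of the WT males, the male difference was -1.26 with adjusted p = 0.0362.

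The sex difference in WT mice was 1.18 on the log2 scale, higher in females (SE 0.281, 95% interval 0.59 to 1.77; adjusted p = 0.0194), where 4.87% of all genes passed, 2.67% as higher and 2.2% as lower. It was smaller than 1.5, a size that 1.81% of genes passed between the WT sexes. This call was lost when WT female 2 or 3, or WT male 1 or 2, was left out, with adjusted p = 0.0666, 0.0593, 0.115 and 0.0917 in that order. Without WT male 3 the difference was 1.54 with adjusted p = 0.00430. The exact permutation p was 0.10, the smallest that 3 against 3 mice can give. In ESR1KO mice the sexes differed by 0.16 (95% interval -0.34 to 0.66; adjusted p = 0.749), a comparison in which 0.272% of genes passed. Leaving out ESR1KO female 1, with the highest Esr1 level of that group, turned this value to -0.04.

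Whether the size of the Esr1 fall differed between the sexes was tested as an interaction. The log2 difference in females minus that in males was -1.03 (95% interval -1.80 to -0.25). The unadjusted p was 0.0123, and the value did not pass after adjustment over all genes (adjusted p = 0.214), where 1.94% of genes passed, 1.02% as higher and 0.923% as lower, and 1.09% passed with a size of at least 1.5. The comparisons in females and males used separate mice.

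**Figure D2:**
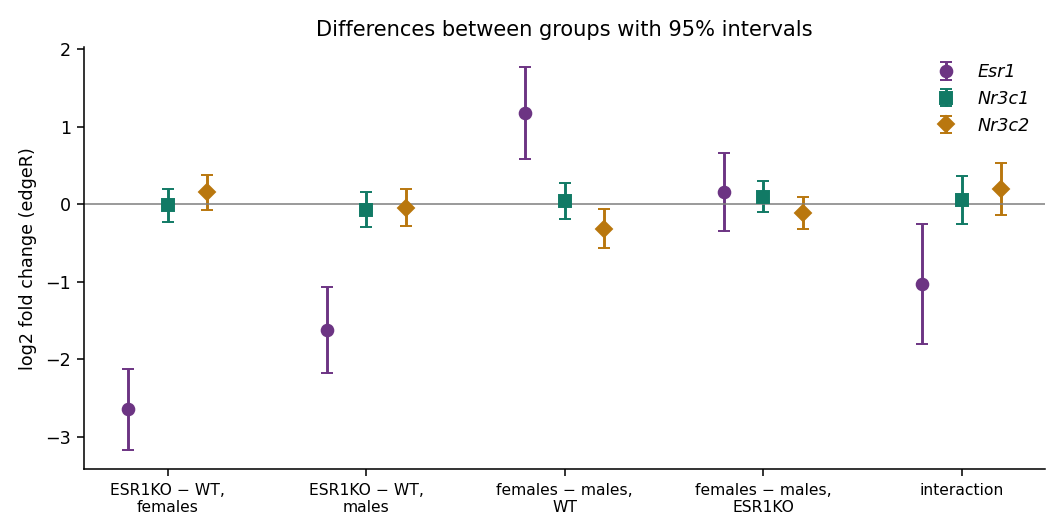
The log2 fold changes of Esr1, Nr3c1 and Nr3c2 in 5 comparisons, with 95% intervals from the edgeR fit over all 15 mice. Esr1 lies at -2.64 and -1.62 in the knockout comparisons and at 1.18 between the WT sexes, while all Nr3c1 intervals include 0.

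Nr3c1 RNA, for the glucocorticoid receptor, varied little between the groups. The WT females had 158, 153 and 160 CPM, and the ESR1KO females had 186, 165, 140, 136 and 152 CPM. The WT males had 157, 151 and 149 CPM, and the ESR1KO males had 146, 143, 149 and 143 CPM. The groups overlapped in each of the 4 comparisons between them. ESR1KO females were the most variable, with a coefficient of variation of 13.1% against 2.17% to 2.74% in the other groups, and ESR1KO female 1 was the highest mouse of all. The difference between ESR1KO and WT was -0.01 in females (95% interval -0.23 to 0.20; adjusted p = 0.956) and -0.07 in males (95% interval -0.29 to 0.15; adjusted p = 0.864). Between the sexes it was 0.04 in WT (95% interval -0.19 to 0.28) and 0.10 in ESR1KO mice (95% interval -0.10 to 0.29). The intervals therefore bound any change of Nr3c1 in these 4 comparisons to at most 0.295 in size, on the log2 scale.

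Nr3c2 RNA, for the mineralocorticoid receptor, lay between 36.9 and 53.3 CPM in all mice. WT females had 42.7, 36.9 and 39.7 CPM and WT males had 53.3, 50.4 and 44.7 CPM, so that every WT male was above every WT female. ESR1KO females had 38.1, 39.6, 43.3, 47.2 and 52.8 CPM and ESR1KO males had 49.3, 43.8, 50.1 and 48.4 CPM, and these groups overlapped. The difference between WT females and WT males was -0.31 (95% interval -0.57 to -0.06; unadjusted p = 0.0190) and did not pass after adjustment (adjusted p = 0.175 by the edgeR test). As given above, no overlap between the WT sexes was common, at 30.1% of genes. The knockout comparison gave 0.15 in females (95% interval -0.08 to 0.38; adjusted p = 0.430) and -0.05 in males (95% interval -0.28 to 0.19; adjusted p = 0.923). Between the ESR1KO sexes it gave -0.12 (95% interval -0.33 to 0.09; adjusted p = 0.546).

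Levels were compared between the receptors only per kilobase of exon. Per kilobase of all annotated exons, WT females had 20.4 ± 0.46 CPM of Nr3c1, 6.14 ± 0.45 of Nr3c2 and 5.996 ± 0.50 of Esr1 (SD, n = 3). By this measure 90.5% of the genes tested were below Nr3c1, 74.2% below Nr3c2 and 73.6% below Esr1 in WT females. Esr1 moved down to above 36.8% of genes in ESR1KO females and 35.6% in ESR1KO males, from 56.5% in WT males. Per kilobase of the longest principal transcript, Esr1 in WT females was at 12.9 ± 1.07 CPM, above Nr3c2 at 6.72 ± 0.49, so the order of Esr1 and Nr3c2 in WT females depends on the length used. In the other 3 groups the mean of Esr1 was below that of Nr3c2 under both lengths, and in WT males under the second length the 2 receptors' values overlapped within their SD.

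**Figure D3:**
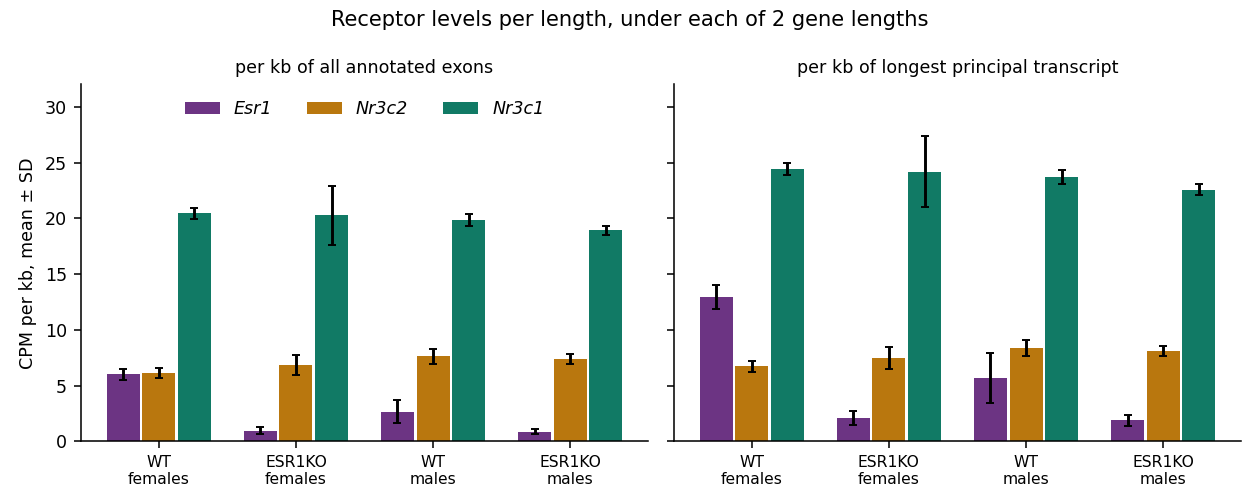
CPM per kilobase in each group, as bars of the mean from 0 with the SD, under 2 gene lengths. Nr3c1 is highest in each group, and Esr1 in WT females is at 5.996 per kilobase of all exons but at 12.9 per kilobase of the longest principal transcript.

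The remaining receptors were at the edge of detection, and none of the 3 passed the filter on low counts. Esr2 had 14 counts over the 15 libraries. WT females had 0 counts in all 3 libraries, which allows up to 0.0207 CPM over the group at 3 counts and 0.0254 CPM by the exact Poisson 95% limit, while ESR1KO females had 1, 0, 0, 1 and 1, WT males 2, 3 and 0, and ESR1KO males 1, 2, 0 and 3. Gper1 had 20 counts in all, with 1, 1 and 2 in WT females, 1, 1, 0, 1 and 1 in ESR1KO females, 2, 1 and 0 in WT males and 0, 2, 3 and 4 in ESR1KO males. Pgr had 8 counts in all, 1, 0 and 1 in WT females, 0, 0, 0, 1 and 3 in ESR1KO females, and 1, 0 and 1 in WT males. All 4 ESR1KO males had 0 counts of Pgr, which allows up to 0.0148 CPM over the group at 3 counts and 0.0182 CPM by the exact Poisson 95% limit.

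Over all libraries Esr2 stood at 0.0193 CPM (exact Poisson 95% interval 0.0105 to 0.0324), Gper1 at 0.0275 (0.0168 to 0.0425) and Pgr at 0.0110 (0.00476 to 0.0217). These intervals cover counting error only. No difference in Esr2, Gper1 or Pgr between groups was detectable at this depth. With no filter on low counts, the smallest adjusted p of the 3 genes was 0.306, for Esr2 between the WT sexes (edgeR). In ESR1KO females the counts leave at most 0.0376 CPM of Esr2 and 0.0439 CPM of Gper1 at the upper end of the interval.

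**Figure D4:**
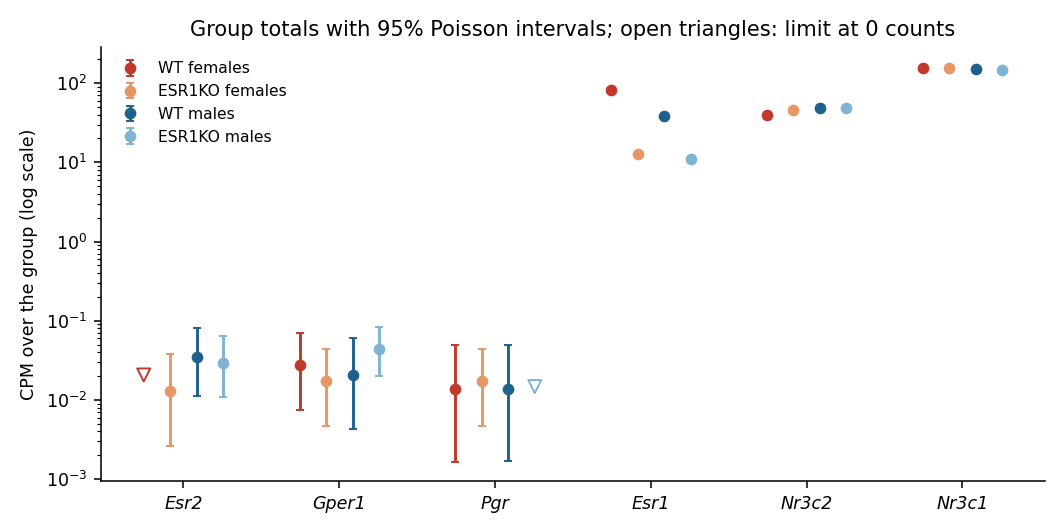
Group CPM of all 6 receptors on a log axis, with exact Poisson 95% intervals from the summed counts; an open triangle marks the level that 3 counts would give where a group had 0. Esr2, Gper1 and Pgr lie below 0.1 CPM in every group, and Esr1, Nr3c2 and Nr3c1 lie at 11.1 CPM or above.

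The promoters of the receptors were searched for the DNA letters that steroid receptors are known to bind, in windows of 300 bases around RefSeq start sites on GRCm38, with both strands read. Windows were found for 5 of the 6 genes (Esr1, Esr2, Gper1, Nr3c2 and Pgr), with a pair of windows for Esr1. None of the 6 windows held the full estrogen response element, GGTCA and TGACC with 3 bases between them, or the single site AGGTCA, found in 0.07% and 16.3% of 32851 windows of this length. None held the full glucocorticoid response element, AGAACA and TGTTC with 3 bases between them, or the single site AGAACA, found in 0.0487% and 19% of windows. Full and single sites overlap in their letters. The TATA box letters TATAAA, found in 13.6% of windows, were in those of Gper1 and Pgr.

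The partners of the receptors were described from 8 lists of genes. Among proteins that supply or remove ligand, 7 of the 11 genes in the table could be tested, and in each knockout comparison 1 passed as higher and 1 as lower. Over all genes 3.14% passed as higher and 2.57% as lower in females, and 0.833% and 0.583% in males. Serpina6, the corticosteroid-binding globulin made by hepatocytes, moved in opposite directions in the sexes. WT females had 418, 483 and 548 CPM and ESR1KO females 191, 252, 274, 239 and 365 CPM, while WT males had 161, 160 and 184 CPM and ESR1KO males 316, 277, 261 and 304 CPM. In neither sex did the genotypes overlap, as for 15.6% of all genes in females and 15.9% in males, and among the ESR1KO mice the sexes did.

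The Serpina6 difference was -0.87 on the log2 scale in females (SE 0.159; adjusted p = 0.00378) and 0.78 in males (SE 0.172; adjusted p = 0.0300), and the interaction passed at -1.65 (adjusted p = 0.000587). In WT mice it was higher in females by 1.52 (adjusted p = 4.38e-05). The male call was lost without any 1 of the 3 WT males or without ESR1KO male 1, 3 or 4, with adjusted p from 0.0521 to 0.132 and a difference of 0.73 to 0.85 over all single omissions. Hsd11b1, which regenerates active glucocorticoid in liver, had a mean of 519 ± 59.3 CPM (SD, n = 3) in WT females and 536 ± 146 (n = 5) in ESR1KO females, and did not pass in any comparison.

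Genes of the 17-beta-hydroxysteroid dehydrogenase family interconvert strong and weak sex steroids. Hsd17b12, which also works in fatty acid elongation, was at 111, 99.0 and 97.0 CPM in the WT females and at 126 to 160 CPM among those with ESR1KO, a rise of 0.50 (SE 0.103; adjusted p = 0.00823). WT males had 147 to 170 CPM of Hsd17b12, and it was lower in WT females than in WT males by -0.59 (adjusted p = 0.00395). The female rise was lost without WT female 2 or 3 (adjusted p = 0.0545 to 0.0676). Hsd17b2, which oxidises estradiol to estrone, was at 225, 184 and 210 CPM in WT males and at 137, 142, 124 and 113 CPM in ESR1KO males, a fall by 0.68 (SE 0.119; adjusted p = 0.00701). In females the Hsd17b2 difference was -0.24 with adjusted p = 0.227. The genotypes did not overlap for Hsd17b2 in males or in females, as for 15.9% and 15.6% of all genes, and nor did the WT sexes, as for 30.1%.

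**Figure D5:**
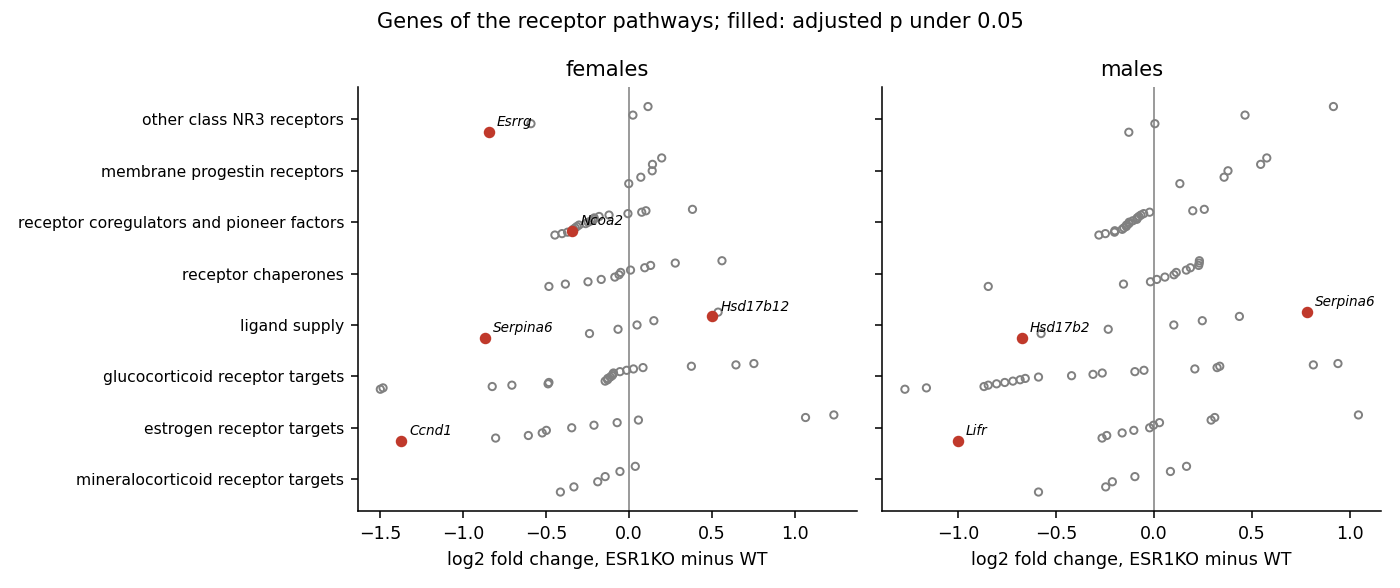
The log2 fold changes of the tested genes of 8 receptor pathway lists, ESR1KO minus WT, with 1 point per gene and filled points for adjusted p under 0.05. Serpina6 lies at -0.87 in females and 0.78 in males, and no point is filled among the glucocorticoid receptor targets, chaperones, membrane progestin receptors or mineralocorticoid receptor targets.

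Of the 4 relatives in class NR3, 1 passed in the female knockout comparison by edgeR, where 5.71% of all genes did. None passed in males by edgeR, where 1 had an unadjusted p under 0.05 and 1 passed by DESeq2. Over all genes in males 1.42% passed by edgeR, 11.9% had such a p and 2.83% passed by DESeq2. The gene that passed in females, Esrrg, encodes an estrogen-related receptor that binds no estrogen. It was at 3.85, 2.12 and 3.46 CPM in the WT females against 1.43 to 1.98 CPM in the ESR1KO females. The WT males had 0.889, 0.880 and 1.33 CPM of it and the ESR1KO males 1.49 to 2.41 CPM. The Esrrg difference was -0.84 in females (SE 0.208; adjusted p = 0.0266) and 0.92 in males (SE 0.237; adjusted p = 0.0708), and the interaction passed at -1.76 (adjusted p = 0.00482). In WT mice it was higher in females by 1.59 (adjusted p = 0.000590). Without WT female 1 or 3 the female call was lost, with adjusted p of 0.124 to 0.146.

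Coregulators and pioneer factors open chromatin and pass the signal of the bound receptor on. Of 19 tested, 1 fell in females by edgeR, against 2 by DESeq2 and 0 to 3 over single omissions, where 5.71% of all genes passed by edgeR and 8.76% by DESeq2. An unadjusted p under 0.05 was seen for 10 of the 19 in females, against 22.5% of all genes. None passed in males by edgeR or DESeq2, where 1 had an unadjusted p under 0.05, against 11.9% of all genes. The medians were -0.25 in females and -0.13 in males, against -0.0013 and -0.0011 over all genes. The gene that fell was Ncoa2, a steroid receptor coactivator, at 77.5, 82.8 and 83.0 CPM in WT females and 61.6, 62.1, 63.2, 62.6 and 70.5 in ESR1KO females (log2 difference -0.34, SE 0.0894; adjusted p = 0.0353). The Ncoa2 call was lost without any 1 WT female, ESR1KO female 2 or 4, or ESR1KO male 1, with adjusted p of 0.0535 to 0.149. Foxa2, a pioneer factor of liver, averaged 21.3 CPM ± 0.36 (SD, n = 3) among WT females and 21.2 CPM ± 5.59 (n = 5) among ESR1KO females and did not pass.

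Chaperones hold the unliganded receptor in a state that can bind hormone, and none of the 12 passed by edgeR in either knockout comparison (medians -0.06 in females and 0.11 in males). By DESeq2 1 passed in females and 0 in males, and 2 and 1 had an unadjusted p under 0.05 by edgeR. Over all genes edgeR passed 5.71% in females and 1.42% in males, and DESeq2 passed 8.76% and 2.83%. Such an unadjusted p was seen for 22.5% and 11.9% of all genes. Fkbp5, a cochaperone that is itself a glucocorticoid target, had a mean of 42.2 ± 16.4 CPM (SD, n = 3) in WT males and 23.5 ± 9.75 (n = 4) in ESR1KO males (difference -0.85, unadjusted p = 0.0255, adjusted p = 0.319). None of the 5 membrane progestin receptors tested passed by edgeR or DESeq2, and 0 in females and 1 in males had an unadjusted p under 0.05, against the same shares of all genes. Their medians were 0.14 in females and 0.38 in males. Pgrmc1, a heme-binding membrane protein of that list, had 865 ± 55.0 CPM (SD, n = 3) in WT females and 953 ± 163 (n = 5) in ESR1KO females.

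Targets of each receptor were counted in the same way. None of the 20 glucocorticoid receptor targets passed by edgeR in either knockout comparison, where 3 in females and 6 in males had an unadjusted p under 0.05, and DESeq2 passed 2 and 1. Over all genes 22.5% in females and 11.9% in males had such a p, and DESeq2 passed 8.76% and 2.83%. Over single omissions the edgeR count ranged from 0 to 2 in each sex. The medians were -0.11 in females and -0.51 in males, with single genes ranging from -1.499 to 0.75 and from -1.27 to 0.94. Tat, a tyrosine-degrading enzyme and classical target, spread from 1071 to 1943 CPM in WT females and from 747 to 1621 CPM in ESR1KO females (difference -0.49, adjusted p = 0.299). Between WT sexes 1 of the 20 targets passed, where 4.87% of all genes did. It was Dusp1, a phosphatase of MAP kinases, lower in WT females, with 19.8, 24.4 and 25.6 CPM against 39.9, 67.0 and 54.4 CPM in WT males (difference -1.21, SE 0.323; adjusted p = 0.0395). The Dusp1 call was lost without any 1 WT female, WT male 2 or 3, or ESR1KO male 1 or 3 (adjusted p = 0.0505 to 0.157). None of the 6 mineralocorticoid receptor targets tested passed in any comparison by edgeR or DESeq2, and in the knockout comparisons 1 in females and 0 in males had an unadjusted p under 0.05. Sgk1, a kinase of sodium transport on both target lists, gave -0.14 in females and -0.10 in males.

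Among estrogen receptor targets 11 of the 15 listed were tested, and 1 fell in each sex by edgeR, where 2.57% of all genes fell in females and 0.583% in males. By DESeq2 5 passed in females and 1 in males, against 8.76% and 2.83% of all genes, and single omissions gave 0 to 5 in females and 0 to 1 in males. An unadjusted p under 0.05 by edgeR was seen for 6 of the 11 in females and 1 in males, against 22.5% and 11.9% of all genes. The medians were -0.35 in females and -0.02 in males, against -0.0013 and -0.0011 over all genes. The list was drawn from breast and uterus as well as liver, and Greb1, a target in those tissues, had 27 counts over the 15 libraries. Ccnd1, for the cell cycle protein cyclin D1, was at 169, 156 and 130 CPM in WT females and at 50.2, 48.1, 89.1, 48.8 and 56.9 CPM in ESR1KO females (difference -1.37, SE 0.333; adjusted p = 0.0249). In WT males Ccnd1 was at 30.3, 22.03 and 51.2 CPM, and it was higher in WT females by 2.13 (adjusted p = 0.00325). The female fall was lost without any 1 WT female or ESR1KO female 2, with adjusted p of 0.0550 to 0.0911, and in males the difference was 0.29 (adjusted p = 0.828). The interaction of Ccnd1 did not pass (adjusted p = 0.118).

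Lifr, the receptor of leukaemia inhibitory factor, was the target that fell in males. It was at 801, 901 and 796 CPM in WT males and at 377, 640, 274 and 373 CPM in ESR1KO males (difference -1.002, SE 0.220; adjusted p = 0.0298). Without any 1 WT male, or ESR1KO male 1, 3 or 4, the call was lost (adjusted p = 0.0801 to 0.114). In females Lifr gave -0.61 with adjusted p = 0.0967.

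The genes whose levels ran most like each receptor over the 15 libraries were taken as a description. For Esr1 they were Ang (Pearson r = 0.90), Gm12405 (0.90) and Bco1 (0.88), and all had higher mean log2 CPM in each WT group than in the ESR1KO group of the same sex. They were chosen for running like Esr1, which separates the genotypes, so this shared pattern is largely set by the choice. Gm12405 was near the floor, with means of 0.054 CPM in ESR1KO females and 0.060 CPM in ESR1KO males. Ang, which encodes angiogenin and has close paralogs that may share reads, averaged 236 CPM in females and 171 CPM in males of the WT, against 115 and 111 CPM in the respective ESR1KO mice. Nr3c1 ran most like Zfp946 (0.93), Kdm7a (0.91) and Styx (0.91), and without ESR1KO females 1 and 4 these fell to 0.81, 0.72 and 0.83. Nr3c2 ran most like Ephx1 (0.90), Kidins220 (0.90) and Lcp1 (0.88).

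After the group means were taken out, the closest genes were others. Esr1 then followed A130071D04Rik (r = 0.94), Pot1b (0.92) and Gm38357 (0.92), Nr3c1 followed Agmo (0.96), Gabpa (0.96) and Alg10b (0.95), and Nr3c2 followed Mtmr3 (0.94), Dcaf7 (0.94) and Ndrg1 (0.93). Within groups Esr1 and Nr3c2 ran against each other, with r = -0.71 over 15 libraries and -0.54 without ESR1KO female 1 and WT male 3. ESR1KO female 1 had the highest Esr1 and Nr3c1 and the lowest Nr3c2 of its group. Points of these correlations share their libraries and scaling factors.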

How the data were processed

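Liver RNA of 15 mice was compared. The labels name Trimmomatic 0.36, STAR and HTSeq 0.6.0 with GRCm38, and the deposited values are raw read counts per gene made by the authors; the annotation release and the treatment of reads with several matches are not given in the sources used here. Counts were fitted here with edgeR 4.0.16 (R 4.3.3; TMM, filterByExpr over the 4 groups, quasi-likelihood F test over all 15 libraries, Benjamini-Hochberg over 17655 genes). A gene passed at adjusted p under 0.05, and a second count asked for a log2 fold change of at least 1.5. Groups come from the labels, and no litter is named. The fit was tested only on simulated counts in which genes were changed in ESR1KO females by a log2 size of at least 1.5. The changed genes all had a mean above 1 CPM. Smaller changes, and changes in genes of lower counts or in other groups, were not simulated. CPM are TMM-scaled, correlations and permutation tests used log2 CPM with a prior count of 2, and lengths are from GENCODE gene models. Floors at 0 counts use 3 counts. DESeq2 1.42.0, total count scaling, no filter, only the compared groups, a replicate block and single omissions were alternatives. The members, lists and tests were chosen with earlier results of these data known. All 6 members are named, together with list genes past the threshold (at most the 4 with the smallest p per list and comparison), at most 2 defining genes per list, and the 3 genes most like each tested member. The values of 1 list gene are not reported here.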

Additional observations from a re-analysis of the deposited data

Results flagged for a closer look

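The genotype effect on Serpina6 differed between the sexes by an interaction of -1.65 on the log2 scale (adjusted p = 0.000587 by the edgeR test), with a fall in 5 of 5 ESR1KO females below the lowest WT female and a level in 4 of 4 ESR1KO males above the highest WT male. That on Esrrg differed by -1.76 (adjusted p = 0.00482), with 5 of 5 ESR1KO females below the lowest WT female and 4 of 4 ESR1KO males above the highest WT male. The genotypes failed to overlap, in either direction, for 15.6% of all genes in females and 15.9% in males.

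In each of 2 genes 1 ESR1KO female, a different mouse in each, stood apart from the other 4. Ccnd1 was at 89.1 CPM in ESR1KO female 3, and Ncoa2 was at 70.5 CPM in ESR1KO female 5, each the highest of its group. Dixon's criterion was applied to 24 sets, each of 1 gene in the ESR1KO females or the ESR1KO males. The genes were the tested receptors and the list genes past the threshold, and the WT groups were not examined. Of the 24 sets these were the ones singled out, and chance singles out about 1 in 20.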

How the results depend on the processing

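Both knockout calls of Esr1 held under each alternative, with log2 differences from -2.84 to -2.50 in females and from -1.82 to -1.26 in males. The WT sex difference of Esr1 ranged from 0.98 to 1.54 over single omissions and lost its call in the 4 omissions named in the report. Values of Nr3c1 and Nr3c2 near 0 changed sign without passing. For Nr3c1 in females it became 0.018 with no filter and 0.025 with the replicate number as a block, and -0.085 to 0.033 over single omissions. Between WT sexes Nr3c1 became -0.0081 with no filter. For Nr3c2 in males the omissions gave -0.11 to 0.010, for Esr1 between ESR1KO sexes -0.038 to 0.31, and for the Nr3c1 interaction -0.015 to 0.10.

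Counts of genes passed moved more. In females 1008 became 1546 with DESeq2, 457 with only the compared groups and 413 to 1538 over omissions. In males 250 became 499 with DESeq2, 411 with no filter, 422 with only the compared groups, 165 with the block and 100 to 331 over omissions. WT sexes gave 860, and 541 to 1096 over omissions. Between ESR1KO sexes 48 became 456 with DESeq2, 313 with no filter, 26 with only the compared groups and 26 to 109 over omissions, and for the interaction 343 became 594 with DESeq2. The causes were not tested.

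Same-numbered mice did not deviate together (19 pairs, median r = -0.02, range -0.19 to 0.14). Pairs with different numbers had a median r of 0.017, so this measure showed no pairing by number. Whether any mice shared a litter is not in the labels and was not tested. With the block, the calls of Ccnd1 in females (adjusted p = 0.0743) and Lifr in males (0.0742) were lost. With only the compared groups fitted, those of Esrrg (0.0593), Hsd17b12 (0.0599) and Ncoa2 (0.1103) in females and Lifr (0.0585) in males were lost, and Ncoa2 was also lost with no filter (0.162). Esr2, Gper1 and Pgr are limited by depth.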
